A study of Danio rerio with 2 samples.

Results

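The endothelial receptor and junction genes are 8 genes by which blood vessel cells are recognised: the growth factor receptor genes kdrl, kdr, flt1 and flt4, the Tie receptor genes tie1 and tek, the junction gene cdh5 and the transcription factor gene fli1a. They were followed in whole brain of wild-type male and female zebrafish, with 1 sequencing library per sex and the brains of 5 fish pooled in each. Rows of the count table were chosen by their gene symbol, which found 7 of the 8 names among 27423 rows. The gene tek was found by its Entrez ID, 30747, in a row that carries its older symbol tie2, so all 8 genes were accounted for among 27095 genes. Of these, 6 had values above 0 and passed the minimum level used here, while tie1 and cdh5 were listed at 0 in both libraries. The only junction gene of the group is thus without a value, and what is described below is 5 receptor genes and fli1a.

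Endothelial cells line every vessel of the brain and, together with pericytes and glia, form the blood-brain barrier. Vegf proteins bind receptor tyrosine kinases on their surface and drive sprouting and survival, while angiopoietins act through Tie receptors on vessel stability. VE-cadherin, the product of cdh5, holds neighbouring endothelial cells together, and Ets factors such as Fli1 switch on many endothelial genes. The design set male brains against female brains to find sex differences in gene expression.

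The labels give the genotype of both libraries as wild type and the tissue as brain. No strain or age of the fish is given in those sources, and no cells were sorted. Total estimated counts were 62248792 for males and 64300988 for females. Levels are given as CPM, that is, scaled counts relative to the mean library total, and 14756 genes reached a mean of 1 CPM and are called measured. All ratios divide male by female and are on a log2 scale, so genes lower in the male library have negative ratios. With 1 library per sex no test was possible and replicate spread is unknown for every difference below, and each interval is a 95% interval of counting error only. The female library also held many transcripts of liver and egg that were scarce in the male library. Over 14 measured liver genes the sum was 134 CPM for males against 2422 CPM for females. Most of the female sum came from vitellogenin genes, with vtg1 at 3.08 CPM for males against 899 CPM for females. Most of the male sum was rbp4, which was similar, at 99.1 CPM for males against 97.0 CPM for females. Other liver genes were lower in males too, such as tfa at 7.94 against 95.7 CPM. Over 7 measured germ cell and egg genes the sum was 6.89 CPM for males against 84.4 CPM for females. Neuronal genes were similar, with 5124 CPM for males against 5046 CPM for females over 9 measured genes.

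Among the 6 measured genes, 5 were lower in the male library and tek was higher. Under a rule of size, a log2 ratio of at least 0.322 on either side of 0 with a counting interval that excludes 0, kdr, flt4 and fli1a were lower in the male library. Of all 14756 measured genes, 12.5% met this rule in that direction. Only tek of the 6 met it in the other direction, as did 7.18% of all measured genes. None of the 6 reached 2-fold, which 2.7% of measured genes did on the lower side and 1.06% on the higher side, 3.76% in all. Without a minimum fold, the counting interval excluded 0 for all 6 genes, 5 lower and 1 higher in the male library, but at this depth the same held for 30.8% of measured genes lower and 31.5% higher. The median ratio of the 6 genes was -0.30, or -0.34 without tek, against -0.0014 over all measured genes. With 1 pool of bulk tissue per sex, differences in endothelial cell number, RNA per cell or the pools themselves cannot be told apart.

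The Vegf receptor genes are described first. The gene kdrl encodes a Vegf receptor whose regulatory sequence is widely used to mark zebrafish blood vessels, and it lies on chromosome 14 from 33840326 to 33899405 on the minus strand (Zv9). It had 2674 reads (43.6 CPM) in the male library, against 3157 reads (48.4 CPM) in the female library. Its ratio was -0.15 (interval -0.23 to -0.08), and 24.9% of measured genes had a lower one. Its values were therefore closer between the libraries than those of the other 5 genes, and it did not reach 0.322.

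The gene kdr, the second zebrafish receptor gene of the Vegfr2 type, lies on chromosome 20 from 22293148 to 22349696 on the plus strand. It had 1623 reads (26.4 CPM) in the male library, against 2242 reads (34.4 CPM) in the female library. The ratio was -0.38 (interval -0.47 to -0.28), a 1.30-fold higher level in the female library, and 10.8% of measured genes had a lower ratio. The interval of kdr did not overlap that of kdrl. The number of kdrl reads per kdr read, which needs no scaling between libraries, was 1.65 in males against 1.41 in females, and the ratio of these was 1.17 (interval 1.08 to 1.27).

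The gene flt1 encodes Vegfr1, which binds Vegfa and, as a soluble form, takes it away from other receptors. It lies on chromosome 24 from 22358758 to 22416733 on the minus strand. It had 1150 reads (18.7 CPM) in the male library, against 1469 reads (22.5 CPM) in the female library, with a ratio of -0.26 (interval -0.38 to -0.15). It lay between kdrl and kdr and its interval overlapped both, so flt1 cannot be placed apart from either at this depth. The deposited rows are per gene, so soluble and membrane-bound forms are counted together.

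The gene flt4 encodes Vegfr3, the Vegfc receptor known for its role in lymphatic and venous sprouting. It lies on chromosome 14 from 19717038 to 19856641 on the minus strand. Its counts were the lowest of the 6 genes, with 324 reads (5.28 CPM) in the male library, against 481 reads (7.37 CPM) in the female library. The ratio was -0.48 (interval -0.69 to -0.28), the most negative of the 6 and the widest interval. Only 7.99% of measured genes had a lower ratio. Summed over the 4 Vegf receptor genes there were 5771 male against 7349 female reads, a ratio of -0.26 (interval -0.31 to -0.21).

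The gene tek encodes Tie2, the angiopoietin receptor, which in mammals keeps mature vessels stable. Its row on chromosome 5, from 840241 to 863982 on the plus strand, had 2283 reads (37.2 CPM) in the male library, against 1850 reads (28.4 CPM) in the female library. The ratio was 0.39 (interval 0.30 to 0.48), 1.31-fold higher in the male library, and 94.7% of measured genes had a lower one. Thus tek stood on the opposite side from the other 5 genes, and its interval overlapped none of theirs. The next row upstream, zgc:92052, now ift74, ends 1280 bases before tek on the same strand. It too was higher in the male library, with 3476 against 3150 reads and a ratio of 0.23 (interval 0.16 to 0.30). The part of reads shared with that row was not tested.

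The gene fli1a, now named fli1, encodes an Ets transcription factor of endothelial and blood lineages. It lies on chromosome 18 from 46992369 to 47051480 on the plus strand. It had 1045 reads (17.0 CPM) in the male library, against 1403 reads (21.5 CPM) in the female library. The ratio was -0.34 (interval -0.45 to -0.22), just past the line at 0.322. Once a trend of the ratio with expression level was removed it was -0.28, short of that line. Its paralogue fli1b, a related endothelial gene named after its values were seen, stood at 864 against 1135 reads (-0.30, interval -0.43 to -0.18). Other endothelial transcription factor genes, named in the same way, did not all lean to that side. Among them, erg stood at -0.01 (3339 against 3566 reads, interval -0.07 to 0.06) and etv2 at 0.29 (200 against 174 reads, interval -0.01 to 0.59).

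**Figure D1:**
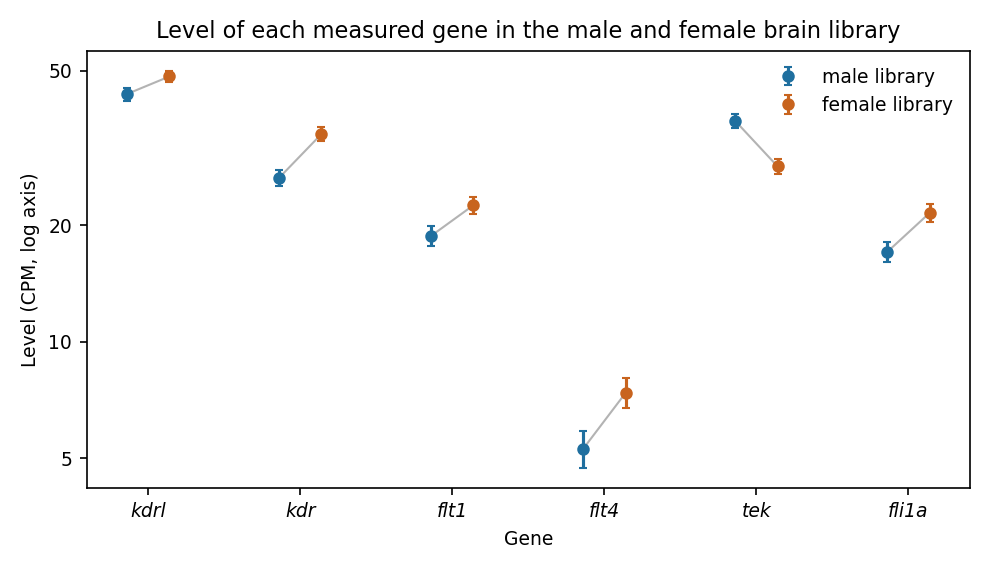
Level of each of the 6 measured genes in CPM on a log axis, with the male library left of the female library and bars for the exact 95% Poisson interval of the count. The line falls towards the female library for tek, at 37.2 against 28.4 CPM, and climbs towards it for the other 5 genes; heights of different genes are not per transcript length and are not comparable.

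**Figure D2:**
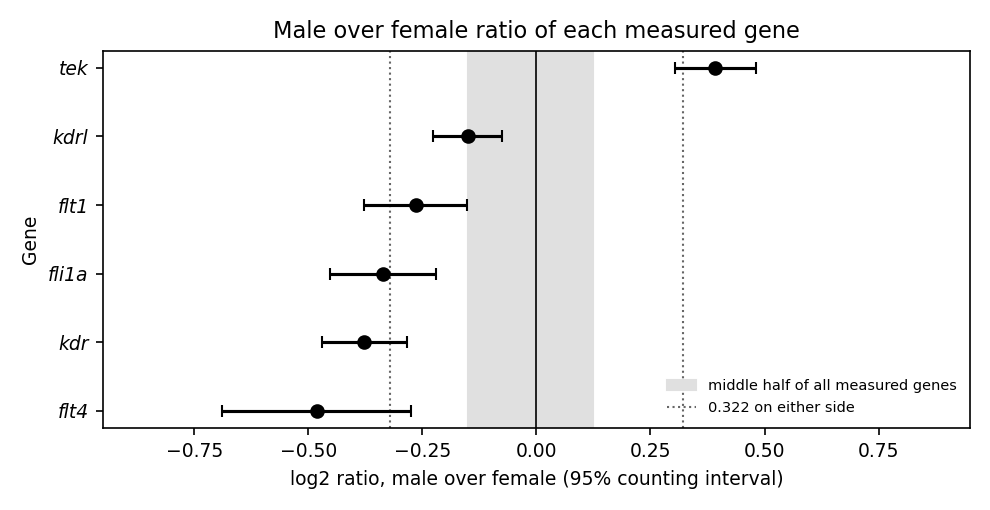
The log2 ratio of male over female for each measured gene with its 95% counting interval, beside the interquartile range of all 14756 measured genes in grey, -0.15 to 0.12, and dotted lines at 0.322 on either side of 0. Only tek, at 0.39, lies right of 0, and flt4, at -0.48, lies farthest left.

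Because the genes were counted in the same libraries, their balance can be read without any scaling. Of the reads of the 6 genes, tek took 25.1% in the male library (exact interval 24.2 to 26.0) and 17.4% in the female library (16.7 to 18.2). The share of kdr was 17.8% in males against 21.1% in females, and that of kdrl was 29.4% in males against 29.8% in females, with overlapping intervals. Among the 15 pairs of genes, the read ratio differed between the libraries beyond counting error in 8, and these included all 5 pairs with tek. Per read of kdr there were fewer reads of tek in the female library, since kdr over tek was 0.711 in males against 1.21 in females. The other 3 such pairs set kdrl against kdr, flt4 and fli1a. Among kdr, flt1, flt4 and fli1a no pair differed beyond counting error. How often pairs of other measured genes differ in this way was not counted, so the 8 of 15 has no background. For single genes the counting interval alone excluded 0 for 30.8% of measured genes lower and 31.5% higher in the male library. Summed over the 6 genes there were 9099 male against 10602 female reads, a ratio of -0.13 (interval -0.17 to -0.09). Without tek the sum was 6816 against 8752 reads and the ratio -0.27 (interval -0.32 to -0.23).

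**Figure D3:**
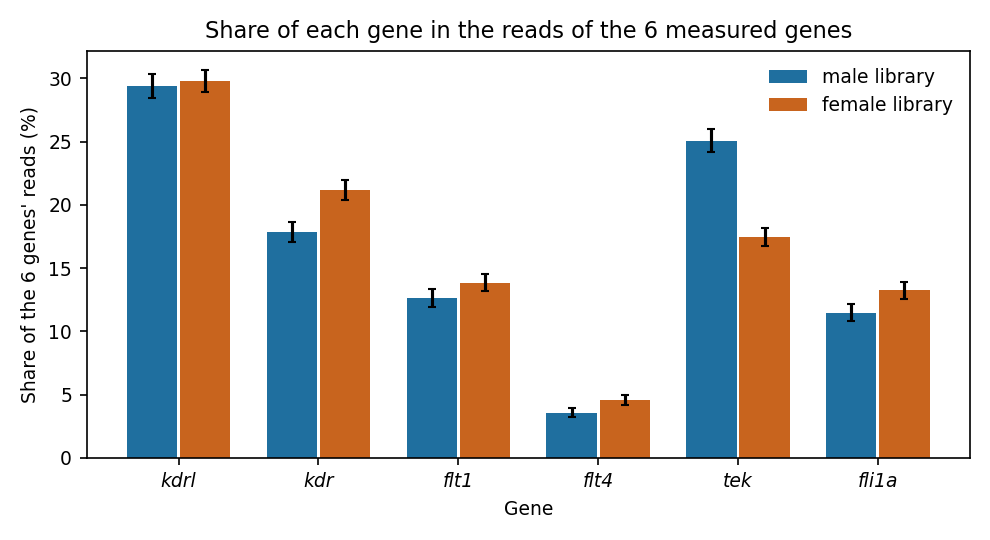
Share of each gene, in percent, of the reads of the 6 measured genes within the male library (left bar) and the female library (right bar), with exact 95% binomial intervals. The share of tek is 25.1% in males against 17.4% in females, while that of kdrl is 29.4% in males against 29.8% in females.

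The value of cdh5 cannot be read as absence, and whether that of tie1 can be was not tested. The row of cdh5 lies on chromosome 7 from 45433470 to 45455757 on the plus strand, inside a stretch in which every row is listed at 0 in both libraries. That stretch begins at 6819342, runs over 1319 of the 1532 rows of the chromosome and reaches its last row. Genes that cells in general use lie there too, and of 77 rows with ribosomal protein symbols 9 were listed at 0, 6 of them on chromosome 7. Similar end stretches covered the last 179 rows of chromosome 12 and the last 432 rows of chromosome 23. On the other 22 numbered chromosomes the longest run was 49 rows. Of chromosome 7 rows 95.5% were at 0, against 24.3% to 50.4% on those 22. The tables do not say how the stretches arose.

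The gene tie1 encodes the orphan partner of Tie2 and lies outside such a stretch, on chromosome 6 from 33681991 to 33704006 on the minus strand. On that chromosome 29.2% of rows were at 0. The row LOC100500728, now lnc.tie1, overlaps the 3′ part of tie1 by 320 bases on the plus strand. The antisense RNA of tie1 is known in zebrafish to bind the tie1 message. This row had 149 reads in the male library, against 291 in females, with a ratio of -0.87 (interval -1.17 to -0.59). Whether counting used strand is not given in the sources used here, so reads of tie1 and of its antisense RNA cannot be told apart where they overlap. The antisense values therefore give no level for tie1 itself.

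**Figure D4:**
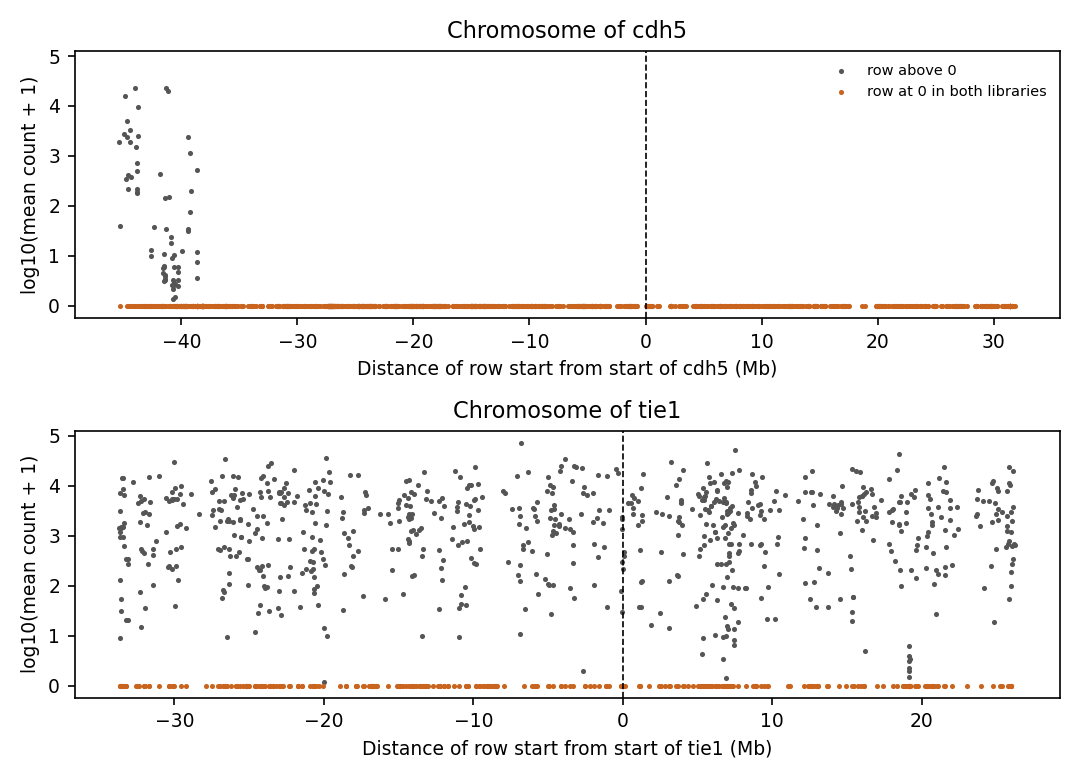
Each point is a row of the count table on the chromosome of cdh5 (top) and of tie1 (bottom), placed by distance in Mb from the start of that gene, with log10 of the mean count plus 1 on the vertical axis. Around cdh5 all rows are at 0, as are 1319 consecutive rows to the chromosome's end. Around tie1 rows above 0 and rows at 0 are mixed, and 29.2% of the rows on its chromosome are at 0.

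A wider set of vascular pathway genes was described with 7 lists, whose genes are not all limited to endothelial cells. They found 105 genes, of which 88 were measured and 15 were listed at 0, 9 of these 15 in the end stretches of chromosomes 7 and 23. Of the 88, 16 were lower in the male library under the rule of 0.322, or 18.2%, and 9 were higher, or 10.2%, beside 12.5% and 7.18% of all measured genes. The median was -0.03. The lists therefore went both ways. The part of other brain cells, or of any liver and egg tissue in the female library, in the values of these genes was not tested. The pooled median is therefore not that of endothelial cells alone.

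Of 8 measured ligand and co-receptor genes of the Vegf receptors, 2 were higher in males under the rule and none was lower. Over all measured genes, 7.18% were higher and 12.5% lower. The list median was 0.13, or 0.07 once a trend of the ratio with genomic span was removed. The higher genes were vegfaa, the main ligand of vessel sprouting, at 2460 against 1947 reads (0.43, interval 0.34 to 0.51), and the co-receptor gene nrp2b at 8942 against 7378 reads (0.37, interval 0.32 to 0.41). The nrp2b ratio was 0.31 with the expression trend removed and 0.27 with the span trend removed, short of the line. The other ligand genes, named after their values were seen, did not reach it, with vegfab at 0.16 (interval 0.13 to 0.20), vegfc, the ligand of Vegfr3, at 0.05 (interval -0.17 to 0.27) and vegfd at -0.26 (interval -0.47 to -0.06).

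Angiopoietin ligands and regulators of Tie receptors had 5 measured genes with a median of -0.18, or -0.03 with the expression trend removed. The gene ptprb encodes the vascular phosphatase that restrains Tie2 in mammals, and had 1706 reads in the male library, against 2621 in females (-0.53, interval -0.62 to -0.44). The angiopoietin-like gene angptl4, a regulator of lipid use that is not a Tie ligand, was higher, at 1415 against 885 reads (0.77, interval 0.64 to 0.89). The ligand genes themselves had low counts and intervals that spanned 0, with angpt1 at 107 against 135 reads and angpt2b at 197 against 237. The ligand gene angpt4 leaned the other way, at 329 against 306 reads (0.19, interval -0.04 to 0.42). The gene ptprb was thus on the opposite side of 0 from tek.

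Of 19 measured junction and surface genes, 5 were lower and 2 were higher in males, beside 12.5% and 7.18% of all measured genes. The list median was -0.14, or -0.09 with the expression trend removed. The surface genes mcamb (2358 against 3756 reads, -0.58, interval -0.66 to -0.51) and clec14a (945 against 1488 reads, -0.57, interval -0.69 to -0.45) were lower, as was cldn5a, the barrier claudin, named after its values were seen, at 5230 against 7083 reads (-0.35, interval -0.40 to -0.30). The occludin genes oclna (372 against 627 reads, -0.66) and oclnb were lower as well, and oclnb at 76 against 352 reads (-2.12, interval -2.50 to -1.76) was the only one of the 88 past 2-fold. Occludins are also made by epithelia, so these are not endothelial markers alone. The higher genes, named after their values were seen, were plvapa (280 against 186 reads, 0.68, interval 0.41 to 0.95) and plvapb (804 against 667 reads, 0.36, interval 0.21 to 0.51, or 0.32 and just short of the line when scaled by library totals). Their product forms the diaphragms of fenestrated vessels, such as those outside the blood-brain barrier. Some genes short of the line, named in the same way, did not share the direction of cldn5a. Its paralogue cldn5b was similar in both libraries, at 634 against 683 reads (-0.02, interval -0.18 to 0.14). The genes pecam1 (0.25, interval 0.08 to 0.43) and egfl7 (0.317, interval 0.12 to 0.51) leaned higher in males, while 12 of the 19 ratios were below 0.

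Among 17 measured endothelial transcription factor genes, 3 were lower and 1 was higher in males, beside 12.5% and 7.18% of all measured genes. The list median of -0.01 turned positive when the span trend was removed. The lower genes were sox7, which acts in arterial specification (1816 against 2483 reads, -0.36, interval -0.45 to -0.27), and the forkhead genes foxc1a (690 against 946 reads, -0.37) and foxc1b (309 against 462 reads, -0.49), which are also active in meningeal and mural cells. The widely expressed Ets gene ets2 was higher, at 5935 against 3936 reads (0.68, interval 0.62 to 0.74). With the span trend removed sox7 stood at -0.32, just short of the line, and with the expression trend removed foxc1a stood at -0.29.

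Notch and ephrin genes of arteries and veins had 11 measured members and a median of -0.01, which turned positive with either trend removed. None of the 11 was higher under the rule, beside 7.18% of all measured genes, of which 12.5% were lower. The Notch target gene hey1 (1821 against 2450 reads, -0.34) and the ligand gene jag1a (1063 against 1415 reads, -0.32) were lower in the male library. Each missed the line in 1 alternative, hey1 at -0.29 with the span trend removed and jag1a at -0.27 with the expression trend removed. Both are also expressed outside vessels.

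The list of receptors and related genes of other vascular pathways had 16 measured members, of which 2 were lower and 1 was higher in males. These counts were near the shares of all measured genes, 12.5% lower and 7.18% higher. The list median was -0.14, or -0.08 with the expression trend removed. The adhesion receptor gene adgrl4 (798 against 1291 reads, -0.61, interval -0.73 to -0.48) and the vessel guidance receptor gene robo4 (809 against 1180 reads, -0.46, interval -0.59 to -0.33) were lower. The endothelin gene edn1, which encodes a ligand and not a receptor, was higher at 731 against 605 reads (0.36, interval 0.20 to 0.52). When scaled by library totals its ratio was 0.32, just short of the line.

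Barrier and transport genes of brain endothelium had 12 measured members, 3 lower and 2 higher in males. Over all measured genes, 12.5% were lower and 7.18% higher. The list median was -0.15. Lower were lsr, a tricellular junction gene (83 against 175 reads, -0.98, interval -1.38 to -0.60), the drug efflux gene abcb4 (1239 against 1698 reads, -0.37) and the monocarboxylate carrier gene slc16a1b (392 against 534 reads, -0.36). The part of any liver or egg tissue in the lsr values was not tested. The lipid transporter gene mfsd2ab was higher at 6682 against 5511 reads (0.37, interval 0.31 to 0.42). Its paralogue mfsd2aa, named after its values were seen, was similar in both libraries, at 4164 against 4336 reads (0.03, interval -0.03 to 0.09). The second higher gene, named after its values were seen, was the lipoprotein receptor gene lrp1aa, at only 84 against 59 reads (0.59). Several of these calls lay near the line: mfsd2ab stood at 0.32 and slc16a1b at -0.25 with the expression trend removed, and abcb4 at -0.32 with the span trend removed, each short of it, the first and the last by little.

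**Figure D5:**
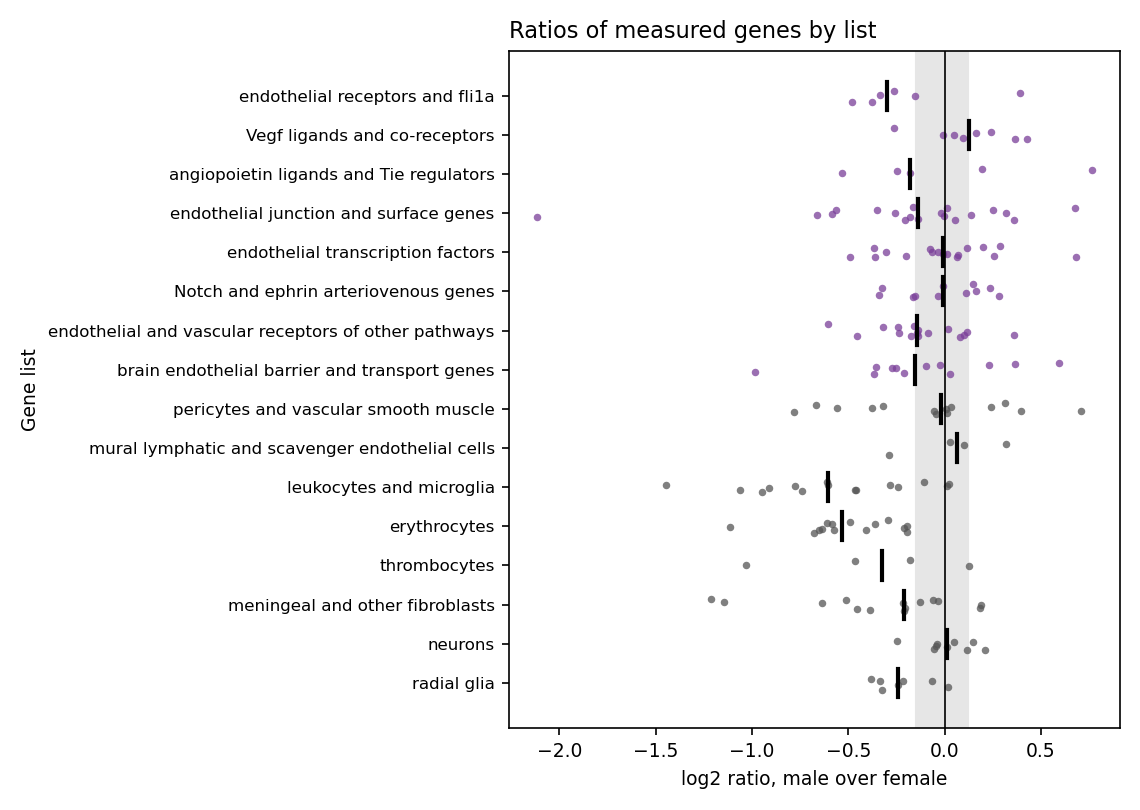
Each point is a measured gene placed by its log2 ratio of male over female, in rows by gene list, with a black bar at the median of each list and the interquartile range of all measured genes in grey. Purple lists are vascular and grey lists are other cell types; the liver and egg lists lie far to the left and are not drawn. The medians of leukocytes and microglia (-0.61) and erythrocytes (-0.53) lie left of that of the 6 genes (-0.30), and that of Vegf ligands and co-receptors (0.13) lies right of 0.

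Markers of several other cell types also differed between the same libraries, while no neuronal gene passed the rule. The counts below stand beside 12.5% lower and 7.18% higher of all measured genes. Of 15 measured leukocyte and microglia genes, 10 were lower in males and none was higher, with a median of -0.61 and a sum of 298 against 384 CPM. Most of that sum came from apoeb (167 against 198 CPM, -0.24), which missed the line. Also short of it were ptprc (0.02), mpx (0.01), spi1a (-0.11) and lyz (-0.29), named after their values were seen. The genes spi1b and p2ry12 were listed at 0 in both libraries, spi1b inside the stretch of chromosome 7 that holds cdh5. Erythrocyte genes were lower for 10 of 14 and higher for none, with a median of -0.53 and a sum of 412 against 544 CPM, none of them listed at 0. Thrombocyte genes were lower for 2 of 4, with a median of -0.32, or -0.18 with the expression trend removed, and a sum of 216 against 204 CPM, most of it from the row matched to gp9 (12574 against 12232 reads), and thbs1b was listed at 0. Meningeal and other fibroblast genes were lower for 6 of 14, with a median of -0.21 and a sum of 465 against 526 CPM, and col5a1 was listed at 0. Liver genes were lower for 13 of 14 and germ cell and egg genes for 6 of 7, with medians of -3.65 and -5.36. Radial glia genes were lower for 3 of 7, with a median of -0.24 and a sum of 2341 against 2687 CPM. With the span trend removed, fabp7a (-0.30) and s100b (-0.29) of these 3 missed the line and gfap (-0.34) stayed past it. These genes were named after their values were seen. The 3 most read of the list did not reach the line, slc1a2b at -0.21, cyp19a1b at 0.02 and glula at -0.24. Neuronal genes passed for 0 of 9, with a median of 0.01 that was negative with scaling to library totals and after removal of the expression trend. The part of these cells in the values of the 6 genes was not tested.

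Cells that share the vessel wall went both ways. Of 14 measured pericyte and vascular smooth muscle genes, 4 were lower in males and 2 were higher. Over all measured genes, 12.5% were lower and 7.18% higher. The median of the 14 was -0.02 and turned positive with either trend removed. Their sum was 359.7 against 388 CPM, and pdgfra and cspg4 were listed at 0. Beside notch3, the lower genes were acta2 (-0.78), myh11a (-0.56) and pdgfbb (-0.67), named after their values were seen. The higher ones, named in the same way, were rgs5b (0.40) and desma (0.71). The gene pdgfbb encodes a ligand and is not a marker of these cells. The highest counts were those of notch3 (6785 against 9357 reads, -0.38), of the channel subunit gene abcc9 (5728 against 5146 reads, 0.24) and of the pericyte gene rgs5a (2937 against 2515 reads, 0.31). Scavenger endothelial and mural lymphatic genes had 0 of 4 measured members past the rule and a sum of 52.6 against 49.9 CPM. Their median was 0.07, or 0.02 when scaled by library totals and 0.19 with the expression trend removed. The scavenger receptor genes were split, stab1 at 655 against 850 reads (-0.29, interval -0.44 to -0.14) and stab2 at 1040 against 887 reads (0.32, interval 0.19 to 0.45). The genes lyve1a, lyve1b and mrc1a were listed at 0, lyve1a and mrc1a inside the same stretch of chromosome 7 as cdh5.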

How the data were processed

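RNA was sequenced from pooled brains of 5 male and 5 female wild-type fish, with 1 library per sex and single reads of 51 bp, per the labels' protocols. TopHat 1.4.1, DESeq and build Zv9 are named in the submitters' processing notes with no roles; for the counting program, annotation and use of strand, nothing is given in the sources used here. Per the file headers, the deposited table holds raw counts, which are estimated counts, since whole numbers, within 0.001, made up 1.56% of the nonzero male values and 1.92% of the nonzero female values. Its normalized columns, deposited by the authors, are log2 values of those counts divided by 0.971 (male) and 1.03 (female).

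Estimated counts were summed by Entrez ID and rounded, then scaled with median-of-ratios size factors, 0.970 (male) and 1.03 (female). Log2 ratios of male over female used an added count of 0.5. Intervals are exact Clopper-Pearson 95% intervals of the male fraction of each gene's reads. With 1 library per sex, intervals cover counting error only. Reads carry no molecular identifiers, and copies of 1 molecule or errors in the estimated counts are not covered. Current symbols came from RefSeq genes of assembly GRCz12tu for 22112 of 27095 genes (81.6%), with coordinates left as deposited. The calculation was tested on simulated data with counting noise alone, the error that the intervals assume. That test says nothing about copied reads, estimated counts or replicate spread. Coding lengths were not used here, so levels were not compared between genes.

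The genes and the 17 other lists were chosen with earlier results of these data known. All 8 genes are named. Vascular lists name up to 4 measured genes past a log2 ratio of 0.322 with an interval excluding 0, ranked by the interval end nearest 0. Some further genes of these lists, past the rule or short of it, were named after their values were seen. Lists of other cells are given by counts, sums and medians, with some of their 3 most read genes and some genes listed at 0. For radial glia and for pericytes and smooth muscle, genes past the rule are named as well. For leukocytes and microglia, genes short of the rule are named as well. Other settings tried were scaling to library totals or by TMM factors (edgeR), the normalized columns as deposited, no minimum or 5 CPM, an added count of 1, the fold alone, and removal of a lowess trend (fraction 0.3) on expression or on genomic span. Software was edgeR 4.0.16 under R 4.3.3, and scipy 1.17.1, pandas 2.3.3, numpy 2.4.6, matplotlib 3.10.9 and statsmodels 0.14.6 under Python 3.11.15.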

Additional observations from a re-analysis of the deposited data

How the results depend on the processing

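No paired analysis was possible because each sex has 1 library, and no library could be left out for the same reason. Each of the 6 measured genes kept its direction and stayed within its counting interval under all 8 alternatives of scaling, level and trend, tek between 0.35 and 0.41 and flt4 between -0.57 and -0.37, and none reached 2-fold. Genes past 0.322 and lower in the male library numbered 2 to 4 against 3 in the main setting, as fli1a was lost with the expression trend removed and flt1 (-0.32) was gained with the span trend removed. The ratio of the summed reads, -0.13, was -0.17 when scaled by library totals, -0.18 with the span trend removed and, in an alternative chosen after seeing the data, -0.27 without tek, which left 0 genes past 0.322 and higher in the male library. The median of the 6 ratios ranged from -0.36 with the span trend removed to -0.25 with the expression trend removed. Their mean in the main setting was -0.20. Over all measured genes, 1843 were lower and 1060 higher under the rule of 0.322, against 921 and 659 at a minimum of 5 CPM, where fewer genes are counted. With the expression trend removed they were 1386 and 1390, so the share lower in the male library went to 49.9%, against 63.5% in the main setting. Depth limits flt4 most, and no depth replaces the missing replicates.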
